A study of Mus musculus with 15 samples.

Results

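Prss56, Lrrc17, Fam132a, Pcp4l1, Padi2 and Myo5b are 6 of the 16099 gene symbols that the authors' deposited tables list for the mouse retina at postnatal day 2. They were selected on their measured level: in retinas that carry Cre and 1 floxed Neurog2 allele, it lay apart from the level in both other genotypes. Bulk RNA-seq was carried out on 15 samples of CD-1 mice in 3 groups of 5. MUT is Chx10Cre;Neurog2CKO/CKO, with Cre and both Neurog2 alleles floxed. HET is Chx10Cre;Neurog2CKO/+, with the same Cre and 1 floxed allele. WT is Neurog2CKO/CKO, with both alleles floxed and no Cre. Cre was thus present in MUT and HET, and HET was the group with an unfloxed Neurog2 allele, so that a difference of HET from both other groups cannot be told apart from a difference in that allele. The Cre line acts in retinal progenitors and is not driven by Neurog2 itself. The labels do not say whether each sample was a separate animal or litter. The sample titles carry bracketed numbers whose first part recurs in all 3 groups, and their meaning is not stated.

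Neurog2 encodes a proneural basic helix-loop-helix factor that binds E-boxes and drives progenitors towards neurons. The 6 genes do not form a pathway. Prss56 encodes a trypsin-like serine protease whose loss makes the eye short in mice and humans, and in the adult mouse retina Müller glia are its main source. Lrrc17 encodes a secreted leucine-rich repeat protein that restrains osteoclast formation in mice. Fam132a, now named C1qtnf12, encodes adipolin, a hormone of fat tissue in the C1q and TNF related family. Pcp4l1 encodes a small IQ motif protein related to the calmodulin regulator Pcp4. Padi2 encodes an enzyme that converts arginine in proteins to citrulline, and Myo5b a motor that carries Rab11-marked recycling endosomes.

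Levels are FPKM, fragment counts scaled to transcript length and library size, which Cuffdiff gave once per group over its pooled samples. No value per sample was analysed here, so no standard deviation is given, and sequencing depth is unknown. The ± after a deposited log2 fold change is the standard error implied by the deposited fold change and test statistic. In bulk retina, fewer cells of a type and less RNA per cell cannot be told apart. All 16 retina-defining genes examined had 0.5 FPKM or more in any group, among them Pax6 at 391 FPKM in MUT, 400 FPKM in HET and 382 FPKM in WT. The targeted gene, Neurog2, was at 10.5 FPKM in MUT, 42.4 FPKM in HET and 59.2 FPKM in WT, so its own level lay between the other groups in HET.

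Prss56 had 5.34 FPKM in MUT, 8.68 FPKM in HET and 5.94 FPKM in WT. The difference was 46.1% for HET over WT, -38.5% for MUT over HET and -10.3% for MUT over WT, so HET stood apart while MUT and WT lay close together. The authors' deposited table gave a log2 fold change of 0.55 ± 0.42 for HET over WT (p = 0.00435, q = 1.00). For MUT over HET the authors' deposited table gave -0.70 ± 0.33 (p = 5e-05, q = 0.0762), and for MUT over WT -0.16 ± 0.44 (p = 0.421). The gene was listed with 1 transcript of 13 exons and 2180 nt on chromosome 1, from 87183313 to 87188405 on the plus strand (mm10).

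Lrrc17 had 10.4 FPKM in MUT, 14.9 FPKM in HET and 8.72 FPKM in WT. It had the largest difference between HET and WT of the 4 genes that were highest in HET, with 71.0% for HET over WT and -30.3% for MUT over HET. The authors' deposited table gave 0.77 ± 0.42 on the log2 scale for HET over WT (p = 0.00025, q = 0.348). For MUT over HET the authors' deposited table gave -0.52 ± 0.30 (p = 5e-05, q = 0.0762). MUT lay nearer to WT than to HET, 18.6% above WT, and the authors' deposited table gave 0.25 ± 0.41 for MUT over WT (p = 0.183). Its single listed transcript has 4 exons and 2154 nt and lies on chromosome 5 from 21543563 to 21575904, plus strand (mm10), within the span of Fbxl13 on the opposite strand. The annotated exons of both genes share 161 bases of the 3608 in Lrrc17, and with no strand information in the sources, fragments from those bases cannot be assigned to one gene. No FPKM was listed for Fbxl13.

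Fam132a was the most abundant of the 6 genes in each group, with 36.8 FPKM in MUT, 52.2 FPKM in HET and 39.3 FPKM in WT over its 3 transcripts. The difference was 32.7% for HET over WT, -29.6% for MUT over HET and -6.68% for MUT over WT. The protein-coding transcript of 8 exons and 1315 nt carried 84.4% of the summed FPKM in MUT, 87.3% in HET and 90.1% in WT. For it the authors' deposited table gave 0.36 ± 0.31 on the log2 scale for HET over WT (p = 0.009, q = 1.00). For MUT over HET the authors' deposited table gave -0.55 ± 0.25 (p = 5e-05, q = 0.0762), and for MUT over WT -0.19 ± 0.32 (p = 0.163). The other transcripts, both without a coding sequence and of 423 nt, had large implied errors. The larger of them had 5.19 FPKM in MUT, 5.11 FPKM in HET and 3.30 FPKM in WT, so it was not highest in HET. The gene lies on chromosome 4 from 155962318 to 155966629, plus strand (mm10).

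Pcp4l1 had 16.4 FPKM in MUT, 22.4 FPKM in HET and 17.2 FPKM in WT, from 1 transcript of 3 exons and 1577 nt. The difference was 30.5% for HET over WT, -26.9% for MUT over HET and -4.77% for MUT over WT. The authors' deposited table gave a log2 fold change of 0.38 ± 0.34 for HET over WT (p = 0.0114, q = 1.00). For MUT over HET the authors' deposited table gave -0.45 ± 0.27 (p = 0.0002, q = 0.205), and for MUT over WT -0.07 ± 0.35 (p = 0.657). The gene lies on chromosome 1 from 171173262 to 171196268, minus strand (mm10).

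Padi2 departed downwards. It had 2.16 FPKM in MUT, 1.51 FPKM in HET and 2.07 FPKM in WT, a difference of -27.0% for HET over WT and 42.5% for MUT over HET. The authors' deposited table gave -0.45 ± 0.52 on the log2 scale for HET over WT (p = 0.047, q = 1.00), the p nearest to 0.05 among the 6 genes. For MUT over HET the authors' deposited table gave 0.51 ± 0.38 (p = 0.00235, q = 1.00), and for MUT over WT 0.06 ± 0.47 (p = 0.791). The listed transcript has 16 exons and 4774 nt on chromosome 4, from 140906344 to 140952586, plus strand (mm10), and its gene's exons share 149 bases with the antisense gene Gm13031.

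**Figure D1:**
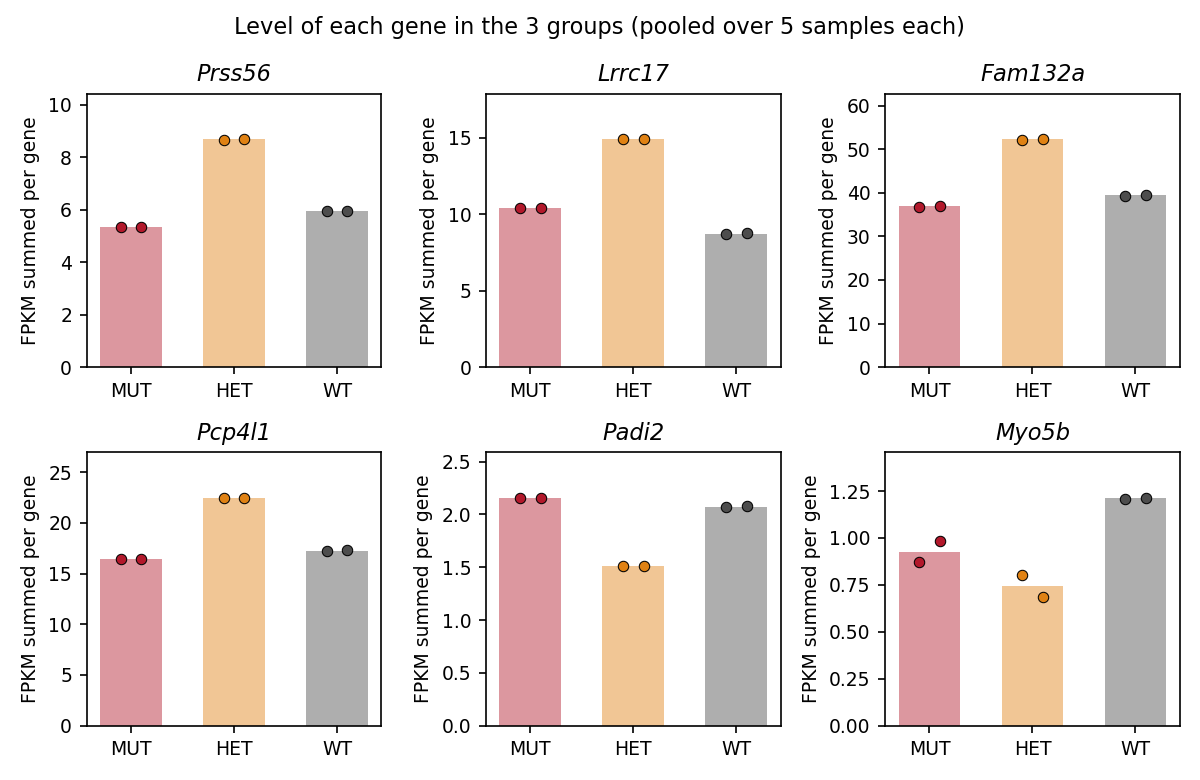
Level of each gene in MUT, HET and WT, in FPKM summed over its transcripts; bars are the mean of the values in the 2 tables that list a group, points are those values, which come from the same 5 pooled samples and are not replicates. Prss56, Lrrc17, Fam132a and Pcp4l1 were highest in HET (8.68, 14.9, 52.2 and 22.4 FPKM) and Padi2 and Myo5b lowest; the points of Myo5b differ because one of its transcripts is missing from the table of MUT over HET.

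The stretch around the start of transcription was available from RefSeq (GRCm38.p6, the assembly of mm10) for 4 of the 6 genes and is shown because the tested factor of this study binds E-boxes and these genes differed in the same samples. Each runs 5′ to 3′ on the gene's strand over 300 bases, 250 before the annotated start and 50 from it, with matches to the E-box CANNTG and to TATAAA in capitals. They lie at chr1:87183064-87183363 (Prss56, plus strand), chr5:21543277-21543576 (Lrrc17, plus strand), chr1:171196219-171196518 (Pcp4l1, minus strand) and chr4:140906110-140906409 (Padi2, plus strand).
Prss56: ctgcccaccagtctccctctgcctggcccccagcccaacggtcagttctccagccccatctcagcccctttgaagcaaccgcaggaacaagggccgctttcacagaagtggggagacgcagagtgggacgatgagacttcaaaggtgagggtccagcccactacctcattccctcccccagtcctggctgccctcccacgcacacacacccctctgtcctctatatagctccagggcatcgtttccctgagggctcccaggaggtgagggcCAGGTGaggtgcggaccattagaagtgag
Lrrc17: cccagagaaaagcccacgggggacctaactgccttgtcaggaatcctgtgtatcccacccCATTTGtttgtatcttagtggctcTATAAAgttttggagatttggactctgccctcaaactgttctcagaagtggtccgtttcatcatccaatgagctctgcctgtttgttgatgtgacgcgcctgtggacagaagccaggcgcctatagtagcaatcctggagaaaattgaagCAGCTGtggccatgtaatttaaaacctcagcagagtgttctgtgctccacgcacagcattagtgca
Pcp4l1: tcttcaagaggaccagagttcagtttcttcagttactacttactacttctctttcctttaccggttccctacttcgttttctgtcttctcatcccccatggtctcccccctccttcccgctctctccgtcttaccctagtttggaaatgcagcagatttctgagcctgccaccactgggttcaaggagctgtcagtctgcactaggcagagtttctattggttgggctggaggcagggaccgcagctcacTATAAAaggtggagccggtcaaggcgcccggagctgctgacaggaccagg
Padi2: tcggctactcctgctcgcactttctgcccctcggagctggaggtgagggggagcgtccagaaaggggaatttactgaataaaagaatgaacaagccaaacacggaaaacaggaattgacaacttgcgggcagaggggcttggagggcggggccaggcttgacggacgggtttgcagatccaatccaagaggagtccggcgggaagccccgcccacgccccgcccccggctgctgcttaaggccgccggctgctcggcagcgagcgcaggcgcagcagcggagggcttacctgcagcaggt

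Distances here are from the RefSeq start, which for Prss56, Lrrc17 and Padi2 is not the first base of the transcript described above. Lrrc17 held 2 E-box matches, CATTTG starting 190 bases and CAGCTG starting 16 bases before the start. Prss56 held 1, CAGGTG, which begins at base 22 after the start. No match lay in the windows of Pcp4l1 and Padi2. Both strands were searched, and 72.3% of the 32851 RefSeq windows of the same length hold a CANNTG match, so the 2 of 4 windows here are a description only. The forms CAGATG, in 17.2% of all windows, and CATATG, in 3.91%, were in none of the 4. TATAAA, in 13.6% of all windows, was in Lrrc17, starting 166 bases before the start, and in Pcp4l1, where it begins at the first annotated base. A match is a run of letters and not a shown binding site.

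Myo5b was the least abundant of the 6 genes, and its departure rested on 1 transcript. Over the transcripts listed in each table, it summed to 0.872 FPKM in MUT, 0.800 FPKM in HET and 1.21 FPKM in WT. Over those in the table of MUT over HET, HET was at 0.687 FPKM. In the table of MUT over WT, MUT summed to 0.984 FPKM, a difference of -19.0% from WT. By these sums MUT lay between HET and WT, not close to WT. The transcript of 39 exons and 6745 nt had 0.533 FPKM in MUT, 0.246 FPKM in HET and 0.575 FPKM in WT. The authors' deposited table gave for it -1.22 ± 1.17 on the log2 scale for HET over WT (p = 0.0275, q = 1.00), 1.11 ± 0.88 for MUT over HET (p = 0.0134, q = 1.00) and -0.11 ± 0.90 for MUT over WT (p = 0.773). The transcript of 40 exons and 6065 nt lay the other way, with 0.339 FPKM in MUT, 0.439 FPKM in HET and 0.324 FPKM in WT. That transcript made up 54.8% of the listed Myo5b FPKM in HET, against 26.8% in WT. The split of fragments between these nearly coextensive transcripts is an estimate, and their sum was 0.31 on the log2 (FPKM + 0.1) scale for MUT over HET. A transcript of 382 nt, at 0.115 FPKM in HET and 0.310 FPKM in WT, was not in the table of MUT over HET. When transcripts missing from any of the 3 tables were left out, an alternative added after the values were seen, the log2 ratio of HET over WT was -0.35 in place of -0.54. The gene lies on chromosome 18 from 74440936 to 74771493 (locus, mm10).

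**Figure D2:**
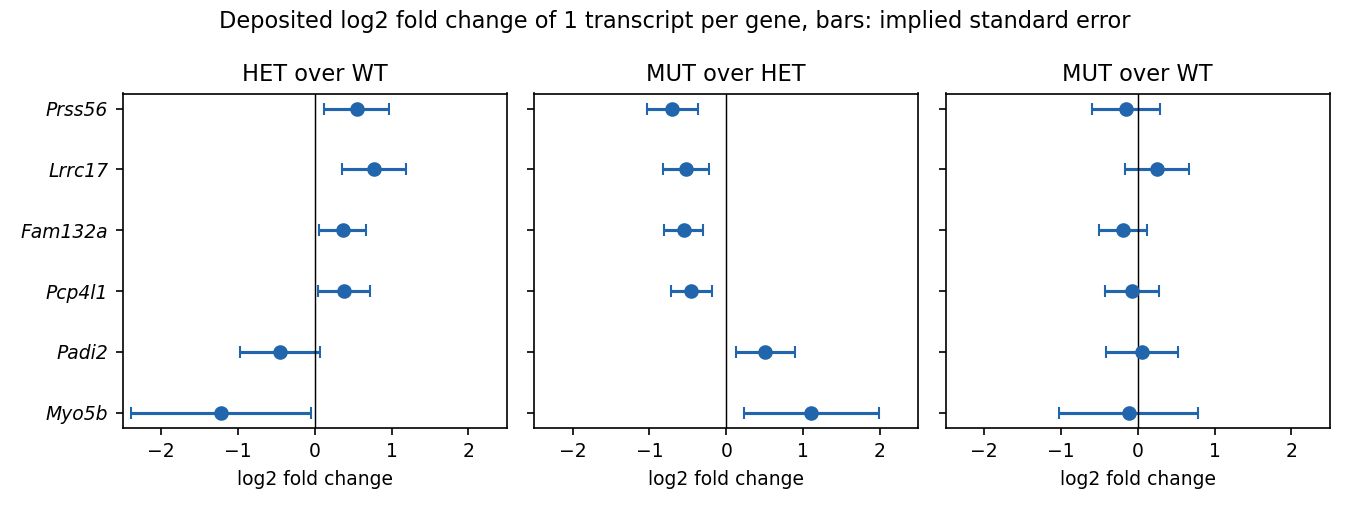
Deposited log2 fold change (x axis) of the transcript of each gene that had p under 0.05 in both tables with HET, in the 3 comparisons; bars are the implied standard error. Prss56, Lrrc17, Fam132a and Pcp4l1 lie above 0 in HET over WT and below 0 in MUT over HET, Padi2 and Myo5b lie on the other sides, and in MUT over WT all values lie between -0.19 and 0.25.

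Each of the 6 genes had a transcript with an unadjusted p under 0.05 in both tables with HET, and since these tables hold the levels on which the genes were selected, nothing further is read from it. In HET over WT, 4 genes were higher, where 0.227% of all 44119 transcripts were higher at that p, and 2 were lower, where 0.288% were. In MUT over HET, 2 genes were higher against 0.344% of 43959 transcripts, and 4 were lower against 0.471%. These shares are per transcript, while the 6 are counted per gene, and a gene with several transcripts can pass with any of them. In MUT over WT none of the 6 genes had a transcript at p under 0.05, where 0.851% of 44526 transcripts did, and a p above the threshold does not show that their levels were alike. No member reached a q-value under 0.05 in any table. In HET over WT the smallest q-value of the whole authors' deposited table was 0.0769 and in MUT over HET it was 0.0762, so no transcript of any gene did in these comparisons. Prss56, Lrrc17 and Fam132a were among the 27 transcripts at the smallest q of MUT over HET.

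The test statistic, the fold change over its implied error, ranged in size from 0.88 to 1.86 over the 6 transcripts in HET over WT and from 1.25 to 2.21 in MUT over HET. It passed 1.96 for none of them in HET over WT, and in MUT over HET for 2, Prss56 and Fam132a. This was common in these tables: of the 227 transcripts with p under 0.05 in HET over WT, 28 passed 1.96, and of the 358 in MUT over HET, 32 did. Cuffdiff's p-values therefore do not follow from the statistic as a normal approximation would give them.

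A level in HET outside those of both other groups was common. Of 14812 genes with 0.5 FPKM or more in any group, HET was above both other groups in 31.5% and below both in 30.2%. The size of the step, taken as the smaller of the absolute log2 ratios of HET over WT and MUT over HET, was 0.54 for Prss56, 0.52 for Lrrc17, 0.43 for Padi2, 0.41 for Fam132a, 0.38 for Pcp4l1 and 0.31 for Myo5b on the scale of log2 (FPKM + 0.1). Larger steps were present in 112 genes for Prss56 and in 347 genes for Myo5b. Among the 10465 genes with 5 FPKM or more in any group, 39 had a larger step than Prss56 and 60 a larger step than Pcp4l1.

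**Figure D3:**
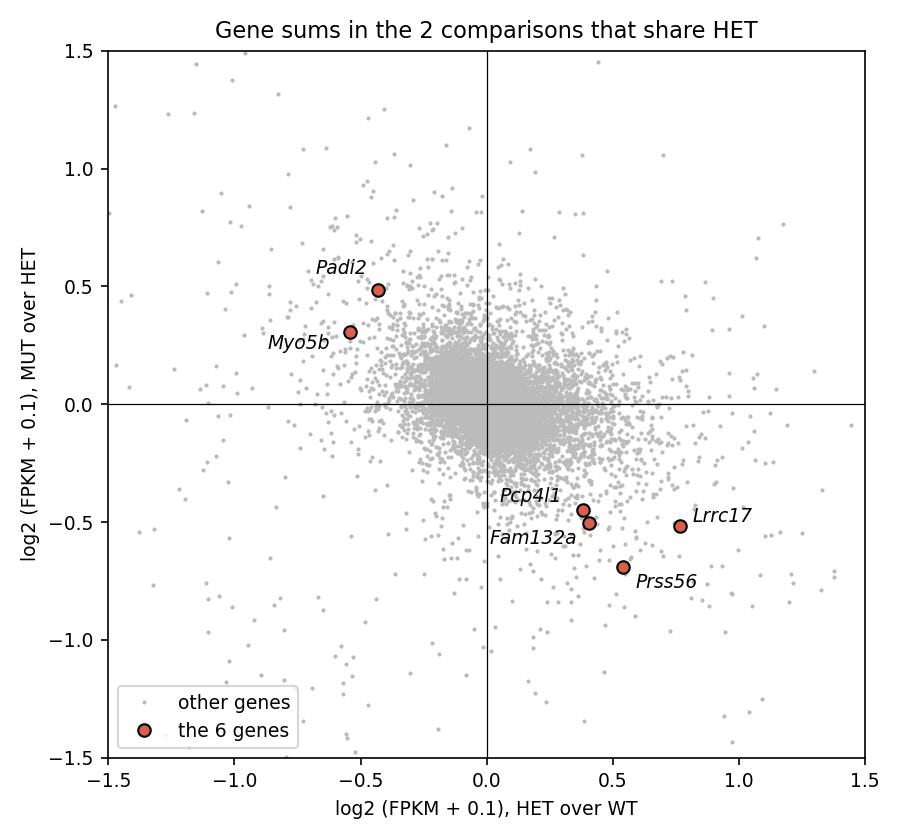
Log2 ratio of summed FPKM (+ 0.1) of HET over WT (x axis) against that of MUT over HET (y axis) for 14812 genes, of which 114 lie outside the limits of 1.5; the 6 genes are marked. Both axes hold the HET value with opposite sign, which by itself tilts the cloud; Prss56, Lrrc17, Fam132a and Pcp4l1 lie at the lower right and Padi2 and Myo5b at the upper left.

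With p under 0.05 in both tables for the same transcript, HET was above both other groups for 21 transcripts (0.0492% of 42685) and below both for 12 (0.0281%). The 6 genes gave 4 and 2 of these. The 21 held 12 protein-coding transcripts, 8 pseudogene transcripts and 1 antisense RNA, and the 12 held 10 protein-coding transcripts, 1 pseudogene transcript and 1 small nucleolar RNA. None of the 33 had a q-value under 0.05 in either table, and 5 had p under 0.05 in MUT over WT as well, none of them a transcript of the 6 genes.

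Outside the 6 genes, transcripts of this kind with 1 FPKM or more in any group were ranked by the smaller of their absolute log2 fold changes in the tables with HET. With HET highest, the first 6 were the pseudogenes Rps3a2, Rps13-ps1, Gm21596, Gm8730 and Gm11546 and 1 mRNA, Cryaa, which encodes a lens crystallin. Rps3a2, for example, had 0.933 FPKM in MUT, 58.3 FPKM in HET and 23.4 FPKM in WT, and its fragments can be split with other copies of its parent gene. Rps3a2, Rps13-ps1 and Gm8730, unlike the 6 genes, also had p = 5e-05 for MUT over WT in the authors' deposited table. A730017C20Rik, singled out after its values were seen, lay closer to Pcp4l1, with 17.9 FPKM in MUT, 24.1 FPKM in HET and 18.5 FPKM in WT. With HET lowest, the first 6 were the small nucleolar RNA Gm22620, the pseudogene Gm1821 and transcripts of Fmnl1, a formin of blood cells, Tmem215, Cptp, a ceramide-1-phosphate carrier, and B3gnt5, a glycolipid glycosyltransferase. Tmem215 had 4.79 FPKM in MUT, 3.24 FPKM in HET and 5.69 FPKM in WT, at -0.81 for HET over WT in the authors' deposited table (p = 0.00835). The Cptp transcript had 5.39 FPKM in MUT, 3.64 FPKM in HET and 6.56 FPKM in WT. A second Cptp transcript went the other way, with 4.13 FPKM in MUT, 5.61 FPKM in HET and 3.51 FPKM in WT.

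Lists of related genes were examined for 5 of the 6 genes at p under 0.05. In the tables with HET, 0.227% to 0.471% of all transcripts passed in a given direction. The lists are counted per gene, and a gene can pass with any of its transcripts. A count of 0 in a list of this size is near the background. Of 10 measured trypsin-like proteases and serpins besides Prss56, 0 passed that p in either table with HET, and their median log2 ratio was 0.05 for HET over WT and 0.00 for MUT over HET. The median over all genes was 0.01 for HET over WT and 0.00 for MUT over HET. Of 19 measured Müller glia genes besides Prss56, 0 passed in either table, and their medians were 0.01 and 0.06. Of 9 measured genes known for eye size besides Prss56, 0 passed, with medians of 0.00 and 0.09. Lrp2, an eye size gene below 0.5 FPKM, was at 0.491 FPKM in MUT and 0.344 FPKM in HET (p = 0.0059 in the authors' deposited table).

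Of 20 measured extracellular leucine-rich repeat genes besides Lrrc17, 0 passed in HET over WT. In MUT over HET, Lrrn1 and Slitrk2 were higher, at 0.27 ± 0.23 (p = 0.0076) and 0.29 ± 0.30 (p = 0.0273) in the authors' deposited table, and 0 were lower. Of 10 measured C1q and TNF related genes besides Fam132a, 0 passed in HET over WT, and 1 was lower in MUT over HET. This was C1ql2, a synaptic organizer, at 15.6 FPKM in MUT, 20.0 FPKM in HET and 17.9 FPKM in WT, and the authors' deposited table gave -0.36 ± 0.26 (p = 0.00175) for MUT over HET. The 11 measured calmodulin and IQ motif genes besides Pcp4l1 had no member at that p in either table. Pcp4 itself was at 62.2 FPKM in MUT, 65.4 FPKM in HET and 58.6 FPKM in WT.

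Padi2 was the one of 5 arginine deiminase genes with 0.5 FPKM or more in any group. Of 9 measured class V myosin and Rab11 recycling genes besides Myo5b, 1 passed in HET over WT and 0 in MUT over HET. It was Rab11fip4, a Rab11 effector, with 53.0 FPKM in HET against 43.1 FPKM in WT for 1 transcript (p = 0.019 in the authors' deposited table). Myo5a, the class V myosin of neurons and pigment cells, was at 23.3 FPKM in MUT, 21.5 FPKM in HET and 19.9 FPKM in WT.

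The nearest measured genes beside each of the 6 on its chromosome were mostly level, and genes further off were not examined in this way. Over the nearest measured gene on either side, 12 in all, the 1 with p under 0.05 in a table with HET was Ecel1, 26.8 kb from Prss56, and it lay the other way from Prss56. Ecel1 encodes an endopeptidase of neurons and had 2.42 FPKM in MUT, 1.91 FPKM in HET and 2.60 FPKM in WT (smallest p = 0.0398 for HET over WT in the authors' deposited table). Ube2j2, 2.71 kb from Fam132a, was at 50.5 FPKM in MUT, 53.7 FPKM in HET and 47.7 FPKM in WT. The small RNA gene Gm23119, 7.07 kb from Myo5b, was at 1.46 FPKM in MUT, 5.24 FPKM in HET and 4.24 FPKM in WT, with no p under 0.05. Beyond these nearest genes, Cptp lies near Fam132a on chromosome 4, from 155864723 to 155869440 (mm10). Of its transcripts described above, 1 was lowest and 1 highest in HET.

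Sex-linked RNA differed among the same pooled samples, mainly in MUT for Y-linked genes. Xist, which coats the silenced X chromosome in female cells, was at 135 FPKM in MUT, 63.2 FPKM in HET and 98.3 FPKM in WT (smallest p of a transcript 0.0734 for HET over WT, 0.0011 for MUT over HET and 0.0471 for MUT over WT in the authors' deposited table). The Y-linked Kdm5d, over 4 transcripts, was at 7.10 FPKM in HET and 4.95 FPKM in WT, and over the 2 listed for MUT and HET at 0.00117 FPKM in MUT and 5.41 FPKM in HET. Over the 2 listed for MUT and WT it was at 0.00117 FPKM in MUT and 3.73 FPKM in WT. The Y-linked Eif2s3y was at 23.8 FPKM in HET and 13.8 FPKM in WT, Ddx3y at 9.18 FPKM in HET and 6.14 FPKM in WT, and Uty at 2.41 FPKM in HET and 1.43 FPKM in WT, and none of the Y-linked genes had p under 0.05 for HET over WT. Of these, Eif2s3y had 1 transcript listed with MUT, at 0.0142 FPKM in MUT and 0.755 FPKM in HET. Kdm6a, an X-linked histone demethylase that escapes X inactivation and was named after its values were seen, was one of the 12 transcripts lowest in HET. It had 12.2 FPKM in MUT, 9.30 FPKM in HET and 11.8 FPKM in WT. Of 4 such X-linked genes, also chosen after seeing the data, 2 were below both other groups in HET, Kdm6a and Eif2s3x. Among all 14812 genes, 30.2% were. For Eif2s3x the smallest p of a transcript was 0.308 for HET over WT in the authors' deposited table. In Kdm5c and Ddx3x, HET lay between the other groups. Xist was thus lowest in HET, and Kdm5d and Eif2s3y were near 0 in MUT where listed. The part of sex in the levels of the 6 genes was not tested.

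Summed over the measured genes of each list, lens and connective tissue RNA was low and was highest in HET. Of 21 lens genes 10 were measured, and their summed level was 7.09 FPKM in MUT, 12.9 FPKM in HET and 8.67 FPKM in WT. HET was above both other groups in 8 of the 10, against 31.5% of all 14812 genes. At p under 0.05, 1 of the 10 was higher in HET over WT and 2 were lower in MUT over HET. The median log2 ratio of the 10 was 0.53 for HET over WT and -0.90 for MUT over HET. These medians were 0.30 and -0.47 with a pseudocount of 1, and 0.29 and -0.43 over genes with 2 FPKM or more. Cryaa had 0.411 FPKM in MUT, 1.11 FPKM in HET and 0.470 FPKM in WT, and the authors' deposited table gave 1.25 ± 1.15 for HET over WT (p = 0.013) and -1.44 ± 0.86 for MUT over HET (p = 0.0004). All 3 measured genes of 10 in the stroma and cornea list, Col1a1, Col1a2 and Postn, were highest in HET, and their sum was 1.43 FPKM in MUT, 2.20 FPKM in HET and 1.38 FPKM in WT. At p under 0.05, 2 of the 3 were higher in HET over WT and 1 was lower in MUT over HET. The median log2 ratio of the 3 was 0.55 for HET over WT and -0.60 for MUT over HET, and 0.24 and -0.26 with a pseudocount of 1. Col1a1 lies on chromosome 11 from 94936224 to 94953042 (mm10). Tmem92, Gm11546 and AA623943, also among the 21 transcripts highest in HET, lie close by, from 94777217 to 94813348. The part of this position in the level of Col1a1 was not tested. Krt12, a keratin of the cornea, was under 0.5 FPKM in every group. Of 6 measured pigment epithelium and melanocyte genes, HET was highest in 5, with a sum of 48.6 FPKM in MUT, 51.7 FPKM in HET and 47.0 FPKM in WT. Rrh alone held 31.6 FPKM in MUT, 32.9 FPKM in HET and 29.1 FPKM in WT. Their median log2 ratio was small, 0.09 for HET over WT and -0.12 for MUT over HET, and 0 had p under 0.05. The 14 microglia and macrophage genes summed to 141 FPKM in MUT, 127 FPKM in HET and 99.3 FPKM in WT, so their sum was not highest in HET. The sums of the vascular, astrocyte and blood cell lists were likewise highest in MUT, and so was the ciliary margin list, at 122 FPKM in MUT, 117 FPKM in HET and 119 FPKM in WT. The part of other tissues in the levels of the 6 genes was not tested.

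Zgrf1, the nearest measured gene before Neurog2 on chromosome 3 and named after its values were seen, was another of the 12 transcripts lowest in HET. It had 5.91 FPKM in MUT, 4.45 FPKM in HET and 5.71 FPKM in WT. The authors' deposited table gave -0.36 ± 0.34 on the log2 scale for HET over WT (p = 0.0192, q = 1.00) and 0.40 ± 0.27 for MUT over HET (p = 0.0006, q = 0.457). Alpk1, the nearest on the other side of Neurog2, summed to 2.69 FPKM in MUT, 1.51 FPKM in HET and 2.34 FPKM in WT. For HET over WT the smallest p of its transcripts in the authors' deposited table was 0.0915. Another transcript had the smallest p for MUT over HET, 0.0018, and for MUT over WT, 0.024. That transcript had 0.695 FPKM in MUT, 0.302 FPKM in HET and 0.198 FPKM in WT, so it was not lowest in HET. In summed FPKM, both neighbours of the floxed gene were lowest in HET, the group that carries 1 unfloxed allele. Among all 14812 genes, 30.2% were lowest in HET. The part of the unfloxed allele in the levels of these neighbours or of the 6 genes was not tested. None of the 6 genes lies on chromosome 3.

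**Figure D4:**
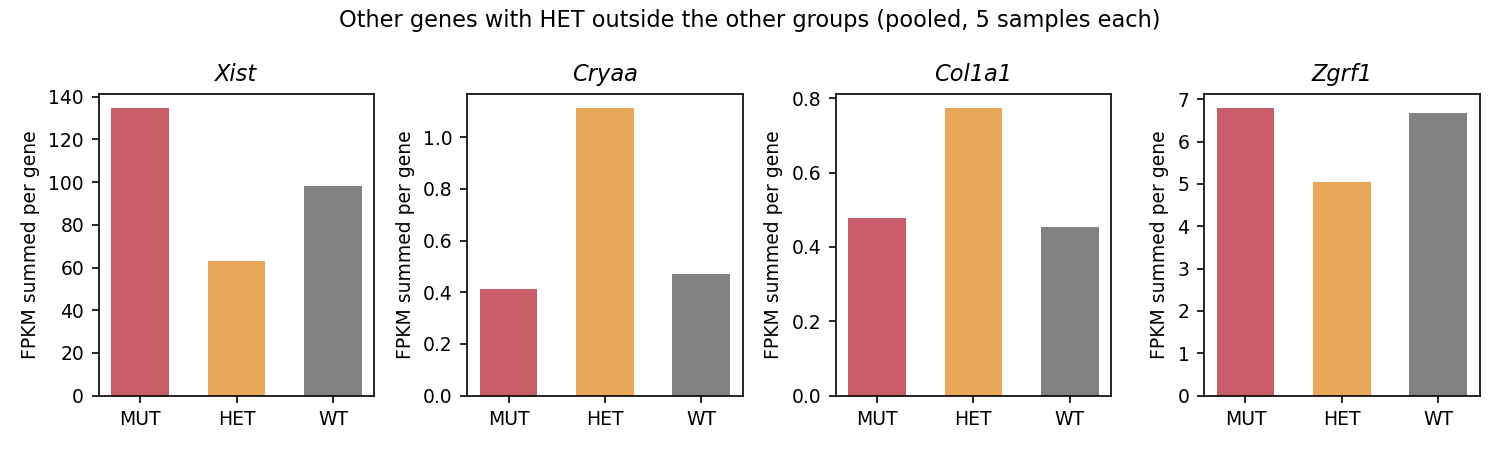
FPKM summed per gene in MUT, HET and WT for Xist (X inactivation), Cryaa (lens), Col1a1 (connective tissue) and Zgrf1 (beside Neurog2), each bar 1 value pooled over 5 samples. HET is lowest for Xist and Zgrf1 (63.2 and 5.05 FPKM) and highest for Cryaa and Col1a1 (1.11 and 0.774 FPKM).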

How the data were processed

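RNA from 15 retina samples was sequenced, and the authors deposited 3 Cuffdiff tables, 1 per pair of groups, of 43959 to 44526 transcripts. Bowtie2, Cufflinks, Cuffdiff and build mm10 are named, per the submitters' processing notes, without versions. Per the file headers, each deposited row holds an FPKM value for both groups, pooled over samples, a log2 fold change, and the p-value, q-value and test statistic (a score) behind it. The tables were normalized separately: a group's values in its 2 tables differed by medians of 0.148% to 0.534%.

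FPKM was summed per gene and compared as log2 (FPKM + 0.1), which understates changes of low genes, for genes with 0.5 FPKM or more in any of the 3 groups, where the plan named either group of a comparison (Python 3.11.15, pandas 2.3.3). A call is the authors' q-value under 0.05, and the implied standard error is the absolute fold change over the test statistic. Spreadsheet dates among symbols (93 to 99 rows) were restored from gene identifiers. Exons come from GENCODE M21 (GRCm38); 98.8% or more of transcripts matched. Loci are counted from 1. Shown genes were all 6 members and Neurog2, the 6 transcripts each way with the largest smaller fold change, members of the lists with p under 0.05, and neighbours. The 6 genes, the lists and the tests were chosen with earlier results of these data known.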

Additional observations from a re-analysis of the deposited data

How the results depend on the processing

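The 6 genes' log2 ratios per gene in the 3 comparisons kept their sign in all 108 recalculations, and each moved by less than the implied error of the gene's transcript. These used pseudocounts of 0.01 and 1, the highest transcript alone, transcripts of 0.5 FPKM or more, each group's value from its other table and transcripts listed in all 3 tables. A change of pseudocount cannot alter a sign. Prss56, Lrrc17, Padi2 and Pcp4l1 have 1 listed transcript each, so the settings that select transcripts return the same value for them. Much of this outcome was therefore fixed in advance. Myo5b moved most: for MUT over HET it was 0.31, against 0.87 with the highest transcript alone and 0.15 with a pseudocount of 1.

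In HET over WT, the 6 genes with Cuffdiff's p under 0.05 became 3 at p under 0.01 and 0 at a q-value under 0.10 or 0.05. Of all 44119 transcripts there, 80 had p under 0.01, 21 a q-value under 0.10 and 0 under 0.05. In MUT over HET, the 6 became 5 at p under 0.01, 3 at a q-value under 0.10 and 0 at 0.05. Of all 43959 transcripts there, 161 had p under 0.01, 27 a q-value under 0.10 and 0 under 0.05. Transcripts with HET above both groups at p under 0.05 in both tables numbered 21, against 9 at p under 0.01, and those below both numbered 12, against 1. At p under 0.01, 3 of the 10 transcripts belonged to the 6 genes. Because the genes were selected on these levels, their counts are a description only. The 111 recalculated list medians moved by less than the median implied error of the list. With a pseudocount of 1, the median for HET over WT of the low lens genes was 0.30 in place of 0.53. That of the low stroma and cornea genes was 0.24 in place of 0.55.

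No paired analysis was possible because the deposited columns hold group values; leaving out samples in turn was not run for the same reason. Depth per sample is unknown, and the low FPKM of Myo5b and of the lens genes limits their precision.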

Other observations

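Optc, which encodes the vitreous proteoglycan opticin, stood out among ciliary margin genes, with 5.73 FPKM in MUT, 2.04 FPKM in HET and 4.65 FPKM in WT. The smallest p of its transcripts was 0.245 for HET over WT and 0.11 for MUT over HET in the authors' deposited table. Blood cell genes were lowest in HET too, with 3 measured genes that summed to 27.4 FPKM in MUT, 19.6 FPKM in HET and 23.7 FPKM in WT.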
